A study of Mus musculus with 9 samples.

Results

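The genes described are 10 receptors and adaptors that let a macrophage sense RANKL, the colony-stimulating factors and tumour necrosis factor. They were chosen by gene name from the 28379 genes of the deposited table: Tnfrsf11a (RANK), the colony-stimulating factor (CSF) receptor genes Csf1r, Csf2ra, Csf2rb, Csf2rb2 and Csf3r, the TNF receptor genes Tnfrsf1a and Tnfrsf1b, and the adaptor genes Traf6 and Gab2. RNA sequencing was performed on bone marrow-derived macrophages (BMDMs) of C57BL/6 mice, the precursor cells of osteoclasts, in 3 groups of 3 libraries. The PBS group, the RANKL group and the RANKL + Vit D + K group all received M-CSF at 20 ng/ml, the ligand of the Csf1r product. Both RANKL groups received RANKL at 100 ng/ml, and the third also received vitamin D (calcitriol) at 1000 nM and vitamin K (menaquinone-4) for 48 h. The sample labels give the vitamin K dose as 20 μM, and the study's methods give another dose. The 2 vitamins were only given together, so neither can be assigned an effect of its own. The methods say that the mice were adult C57BL/6J animals and mention pooled RNA, and neither they nor the labels say whether the 3 libraries of a group came from separate mice or cultures. The p-values therefore measure the spread between these libraries, which may be technical.

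RANK is the receptor that commits a macrophage to the osteoclast lineage when it binds RANKL, and it passes its signal on through the ubiquitin ligase TRAF6, with GAB2 as a scaffold that links RANK to further signalling proteins. The M-CSF receptor, encoded by Csf1r, keeps macrophages and osteoclast precursors alive and dividing. The other CSF receptors serve GM-CSF, which can hold precursors on a macrophage or dendritic path, and G-CSF, a factor of neutrophils. TNF acts through TNFR1, which carries a death domain, and TNFR2, which does not, and TNF is known to help RANKL form osteoclasts.

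Depth was even, at 65915112 to 68229647 counts per library. The genes Acp5 and Ctsk, encoding enzymes of the osteoclast, were used to check the RANKL treatment, and their levels ran from 161 to 271 and from 214 to 426 FPKM in the RANKL libraries against at most 4.94 and 11.4 FPKM with PBS. FPKM, fragments per kilobase of gene and per library size, is a level corrected for gene length and depth. Cyp24a1, the vitamin D 24-hydroxylase and a direct vitamin D target, had 39, 113 and 64 counts in the vitamin libraries and at most 3 counts elsewhere. A set of 10 macrophage markers summed to 25700 to 29700 FPKM with PBS and 16400 to 23800 FPKM with RANKL. With vitamins the set summed to 4460 to 11500 FPKM, and all 10 were still detected. Most of each sum was Lyz2, with means of 26730.7 FPKM with PBS, 19795.7 with RANKL and 6069.49 with vitamins. The sums therefore say little of the other markers in the set. Markers of T cells, B cells, mast cells, stromal cells and erythroid cells each summed to under 1 FPKM in every library, although only 1 T cell and 1 mast cell marker is in the table. Monocyte markers summed to 12.5 to 27.6 FPKM with RANKL and 0.256 to 1.08 FPKM with vitamins, dendritic cell markers to 2.17 to 2.62 and 6.6 to 8.07 FPKM, and endothelial markers to 0.601 to 0.808 and 1.15 to 3.15 FPKM. In the last pair of lists 1 gene each rose, Itgax (from a mean of 1.73 to 7.34 FPKM) and Kdr (from 0.629 to 2.24 FPKM), while 2 dendritic cell markers, Flt3 and Cd209a, fell to 0 and 3 of 7 dendritic and 1 of 4 endothelial markers were at 0 with vitamins. The part of these cells in the results was not tested. In bulk RNA, fewer cells of a type and less RNA per cell cannot be told apart.

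Replicate 2 of the vitamin group and replicate 2 of the RANKL group stood apart from the libraries that share their labels. For 59.1% of all tested genes, and for 5 of the 10 receptors and adaptors, the vitamin library nearest to the RANKL mean was replicate 2 (log2 counts scaled by TMM, edgeR's correction for library composition). Its macrophage marker sum, which is mostly Lyz2, was 11500 FPKM, against 4460 and 6100 FPKM in the other two. On the same TMM-scaled log2 counts, RANKL replicate 2 was the lowest of its group for 8 of the 10 genes, against 43.1% of all genes, and PBS replicate 2 for 7 of 10, against 36.9%. RANKL replicate 2 also had the highest sum of 10 osteoclast markers, 1020 FPKM against 489 and 661 FPKM. Calls among the 10 genes that turn on these libraries are given with and without them.

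Most of the calls among the 10 genes were made between the vitamin group and the other groups. With RANKL against PBS, 2 of 10 genes fell and 0 rose past an adjusted p of 0.05 in edgeR's quasi-likelihood test, among 17002 tested genes of which 1.26% fell and 2.35% rose. At an unadjusted p under 0.05 the counts were 6 lower and 1 higher, DESeq2 called 2 lower and 0 higher, and limma called 1 lower and 0 higher. With vitamins against RANKL, 6 of 10 genes fell and 2 rose, where 17.2% of all genes fell and 16.4% rose. Against PBS, the vitamin group had 5 of 10 genes lower and 1 higher, where 21.0% of all genes were lower and 19.8% higher. The median log2 fold changes of the 10 genes in these comparisons were -0.38, -0.77 and -0.50, against -0.04 for all tested genes each time. Folds are ratios of mean FPKM, while log2 fold changes come from edgeR on TMM-scaled counts, so that the 2 need not match. The comparisons share libraries, so they are not independent of each other. All 10 genes passed the filter on low counts.

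**Figure D1:**
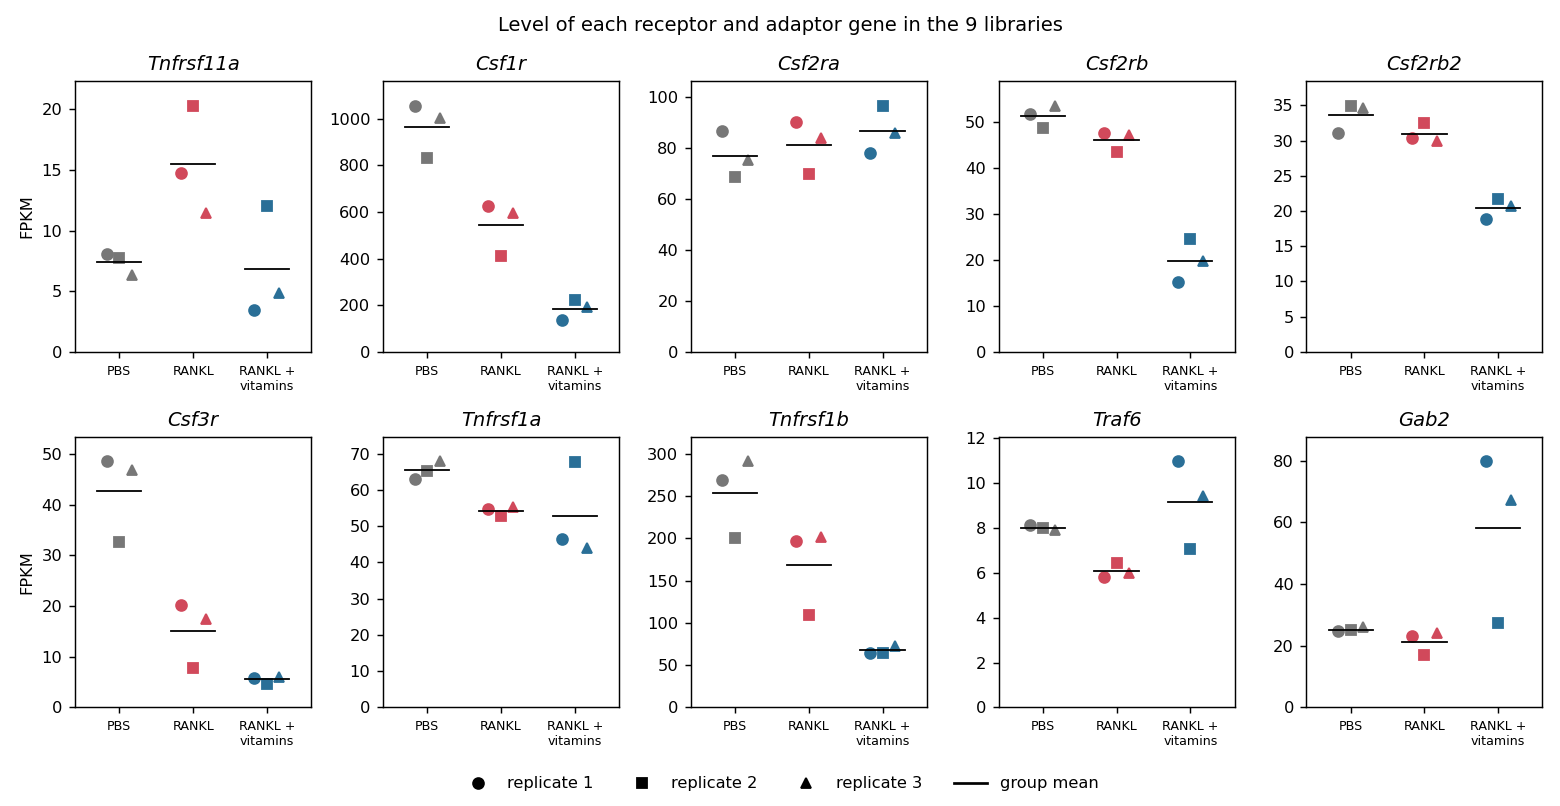
Level in FPKM (vertical axis, from 0) of each of the 10 genes in the 9 libraries, by group, with the marker showing the replicate number and the line the group mean. Csf1r, Csf3r and Tnfrsf1b step down from PBS to RANKL to vitamins in their means, Tnfrsf11a is highest with RANKL at 11.5 to 20.3 FPKM, and Gab2 is highest with vitamins, where replicate 2 stays at 27.4 FPKM.

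The genes covered a wide range of levels, and Csf1r led in every group. In PBS macrophages the order of mean FPKM was Csf1r (964), Tnfrsf1b (253), Csf2ra (77.0), Tnfrsf1a (65.4), Csf2rb (51.4), Csf3r (42.7), Csf2rb2 (33.6), Gab2 (25.3), Traf6 (8.0) and Tnfrsf11a (7.37). In that order, the libraries of Csf3r and Csf2rb2 overlapped, as did those of Traf6 and Tnfrsf11a, and all other neighbours were separate. With RANKL the lower end was reordered to Gab2 (21.3), Tnfrsf11a (15.5), Csf3r (15.2) and Traf6 (6.07), and only Gab2, Tnfrsf11a and Csf3r overlapped with their neighbours there. With vitamins Csf2ra (86.9) stood second after Csf1r (183) and above Tnfrsf1b (67.5), Gab2 (58.2) and Tnfrsf1a (52.7), of which Gab2 overlapped with both of its neighbours. The remaining genes followed as Csf2rb2 (20.4) and Csf2rb (19.9), which overlapped, and then Traf6 (9.14), Tnfrsf11a (6.79) and Csf3r (5.52), of which Tnfrsf11a overlapped with both.

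Tnfrsf11a, at chr1:105780718-105847981 on the plus strand (GRCm38), encodes RANK, the receptor for the treatment itself. It was measured at 8.04, 7.72 and 6.36 FPKM with PBS, at 14.8, 20.3 and 11.5 FPKM with RANKL, and at 3.45, 12 and 4.88 FPKM with vitamins. Every RANKL library lay above every PBS library, while vitamin replicate 2 lay inside the RANKL range and vitamin replicates 1 and 3 lay below all PBS libraries. The RANKL mean was 2.10 times the PBS mean, with a log2 fold change of 0.94 (SE 0.36) that missed the threshold at an adjusted p of 0.2 in edgeR. Without vitamin replicate 2 in the fit, which shares its estimate of spread over all groups, the same difference of 0.94 passed at an adjusted p of 0.0192, and without that library and RANKL replicate 2 it was 0.79 with an adjusted p of 0.0276. Vitamins lowered the mean 2.28-fold from RANKL, a log2 fold change of -1.08 (SE 0.36, adjusted p = 0.0441, edgeR), although the groups overlapped. Osteoclast markers were also lower with vitamins: 8 of 10 fell and 1 rose against RANKL, and their sum went from 489 to 1020 FPKM with RANKL to 70.4 to 100 FPKM with vitamins. In vitamin replicates 1, 2 and 3 the sum was 100, 96.9 and 70.4 FPKM, while Tnfrsf11a was highest in replicate 2. Against PBS, 5 of the 10 markers were higher with vitamins and 1 was lower. Their part in the fall of Tnfrsf11a was not tested. Leaving out any single PBS or RANKL library, or vitamin replicate 1 or 3, ended that call (adjusted p from 0.0597 to 0.157), as did no filter on low counts (0.0745) and a fit of only the groups compared (0.0971), and leaving out vitamin replicate 2 gave -1.67 with an adjusted p of 0.000385. Against PBS the vitamin group differed by -0.15 (95% interval -0.95 to 0.65, adjusted p = 0.773), which became -0.73 (adjusted p = 0.0199) without vitamin replicate 2.

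The genes whose centred levels over the 9 libraries ran closest to Tnfrsf11a, among 11174 tested genes with a mean of at least 1 FPKM, were S100a10 (root mean square difference 0.14 on the log2 scale), Dock5 (0.15) and mt-Nd3 (0.16). S100a10, an annexin A2 partner, read 168, 228 and 149 FPKM with RANKL and 42.1, 142 and 51.7 FPKM with vitamins. Dock5, an activator of Rac used by osteoclasts for bone attachment, read 15.2, 22.1 and 14.3 FPKM with RANKL and 3.89, 10.4 and 5.43 FPKM with vitamins. In both, as in Tnfrsf11a, RANKL replicate 2 was the highest of its group and vitamin replicate 2 lay well above the other vitamin libraries. This likeness follows from how these genes were picked, over the same libraries.

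Promoter stretches are shown for 3 receptors that fell with vitamins and whose RefSeq start lies at or close to the start of the gene in the deposited table, because they differ widely in base composition. Each holds the 250 bases before the start, 5′ to 3′ on the gene's strand, from RefSeq (GRCm38.p6), which had an entry for 7 of the 10 genes. Capitals mark GAGGAA or its reverse complement, the purine-rich core of sites bound by PU.1, an ETS factor of macrophages.
Tnfrsf11a, chr1:105780473-105780722 (plus strand): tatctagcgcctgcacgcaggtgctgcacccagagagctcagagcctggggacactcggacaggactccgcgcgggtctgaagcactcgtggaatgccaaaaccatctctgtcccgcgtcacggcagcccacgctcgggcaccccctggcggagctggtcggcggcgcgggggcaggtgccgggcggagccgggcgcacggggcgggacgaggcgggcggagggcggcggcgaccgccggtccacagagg
Csf2rb2, chr15:78305722-78305971 (minus strand): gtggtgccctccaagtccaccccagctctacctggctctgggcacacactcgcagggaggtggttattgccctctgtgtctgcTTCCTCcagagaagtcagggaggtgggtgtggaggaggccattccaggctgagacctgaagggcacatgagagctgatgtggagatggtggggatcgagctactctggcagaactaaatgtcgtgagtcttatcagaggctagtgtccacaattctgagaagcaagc
Tnfrsf1b, chr4:145246871-145247120 (minus strand): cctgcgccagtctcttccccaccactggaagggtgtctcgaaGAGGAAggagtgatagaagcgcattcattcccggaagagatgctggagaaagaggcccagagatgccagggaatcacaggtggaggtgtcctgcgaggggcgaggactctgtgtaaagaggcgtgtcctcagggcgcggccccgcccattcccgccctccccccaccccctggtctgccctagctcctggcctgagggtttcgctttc
The Tnfrsf11a stretch was 73.6% G and C with 31 CG dinucleotides, that of Csf2rb2 was 56.4% with 3, and that of Tnfrsf1b was 62.8% with 12. The GAGGAA core was found in the 300-base promoters of Csf2ra, Csf2rb2, Csf3r, Tnfrsf1b and Traf6, 5 of 7, and in 28.3% of all 32851 promoters of that length, on either strand. The longer PU.1 form GAGGAAGT, which contains that core, was found in Csf2rb2 only, 27 to 34 bases after the start, and in 3.20% of all promoters. None of the 7 held TTGCGCAA (C/EBP, 0.183% of all promoters), the 10-base NF-κB motif (0.411%), TGANTCA (AP-1, 7.81%), TCACGTG (an E-box of MITF and TFE factors, 3.77%), or the vitamin D receptor elements made of 2 copies of AGGTCA or of GGTTCA with 3 bases between them (0.00609% each), which says only that these letters are not in these windows.

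Csf1r, on the plus strand of chromosome 18, encodes the M-CSF receptor, the receptor for the factor present in every culture. Its levels were 1056, 832 and 1005 FPKM with PBS, 627, 412 and 594 FPKM with RANKL, and 136, 221 and 192 FPKM with vitamins, with no overlap between any groups. Its share of all counts was 0.536% to 0.679% with PBS, 0.265% to 0.404% with RANKL and 0.0879% to 0.144% with vitamins, and its rank among all genes by count went from 10 or 11 with PBS to between 44 and 104 with vitamins. The fall with RANKL was 1.77-fold (log2 fold change -0.94, SE 0.21, adjusted p = 0.0484, edgeR). That call lay close to the threshold and was lost without any single PBS or RANKL library or without vitamin replicate 3 (adjusted p from 0.0667 to 0.186), with median-of-ratios size factors (0.0504), with no filter on low counts (0.0822) and in limma (0.0601 and 0.0547). Without RANKL replicate 2 the log2 fold change was -0.75 (adjusted p = 0.109), and without that library and vitamin replicate 2 it was -0.71 (adjusted p = 0.0396). With vitamins it fell a further 2.97-fold from RANKL (log2 fold change -1.45, SE 0.22, adjusted p = 0.002) and was 5.26-fold below PBS (-2.39, SE 0.22, adjusted p = 0.000236), and these calls held in every alternative fit run. The macrophage markers moved with it: 6 of 10 fell and 1 rose with vitamins against RANKL, among them Lyz2 (lysozyme, -1.61, adjusted p = 0.00795), Adgre1 (F4/80, -0.78, adjusted p = 0.00624) and Mertk (a receptor for engulfing dead cells, -1.89, adjusted p = 0.000661). Their part in the fall of Csf1r was not tested.

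Among the genes closest to Csf1r over the 9 libraries were 1600014C10Rik (root mean square difference 0.12) and Igf1 (0.15). Igf1, insulin-like growth factor 1, read 78.3, 57.8 and 68.9 FPKM with PBS, 39.4, 24.7 and 33.4 with RANKL and 7.57, 13.8 and 10.4 with vitamins. Igf1 shared with Csf1r the order of the groups, the low value of RANKL replicate 2 and the high value of vitamin replicate 2. This likeness follows from how Igf1 was picked, over these same libraries.

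The GM-CSF receptor pairs an α chain, encoded by Csf2ra at chr19:61223957-61228429 (minus strand), with the β chain shared by the GM-CSF, IL-3 and IL-5 receptors, encoded by Csf2rb at chr15:78325752-78351001 (plus strand). The mouse has a second β gene, Csf2rb2 at chr15:78282507-78305721 (minus strand), whose product serves IL-3 alone. Both β genes fell with vitamins and the α gene did not pass the test in any comparison. Csf2rb was measured at 51.8, 48.8 and 53.7 FPKM with PBS, 47.8, 43.5 and 47.2 FPKM with RANKL and 15.2, 24.5 and 19.9 FPKM with vitamins. Csf2rb2 read 31.1, 34.9 and 34.6 FPKM with PBS, 30.4, 32.5 and 29.9 FPKM with RANKL and 18.9, 21.7 and 20.6 FPKM with vitamins. In both genes all vitamin libraries lay below all others. Csf2rb fell 2.32-fold from RANKL (log2 fold change -1.09, SE 0.14, adjusted p = 0.00112) and 2.59-fold from PBS (-1.36, SE 0.14, adjusted p = 0.00031). Csf2rb2 fell 1.51-fold in mean FPKM from RANKL (log2 fold change on TMM-scaled counts -0.45, SE 0.09, adjusted p = 0.00649) and 1.64-fold from PBS (-0.69, SE 0.09, adjusted p = 0.000734). RANKL against PBS gave -0.28 (adjusted p = 0.322) for Csf2rb and -0.24 (adjusted p = 0.189) for Csf2rb2. Csf2ra stayed between 68.8 and 96.8 FPKM over all 9 libraries, with a log2 difference of 0.23 for vitamins against RANKL (95% interval -0.10 to 0.56, adjusted p = 0.251) and 0.19 against PBS (-0.14 to 0.52, adjusted p = 0.324).

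The 2 β genes are near copies, so their counts depend on how reads that match both were shared out, which is not given in the sources used here. Over 2628 aligned coding bases of the longest transcripts in GENCODE vM21 (GRCm38), 95.2% were identical and 125 differed. Of all 150-base windows of the Csf2rb coding sequence, 6.5% occur unchanged in Csf2rb2, and of all 50-base windows 26%. The stretch of 90 coding bases with the most differences shows where reads can be told apart. It lies in exon 4 of both genes, with the 16 differing bases in capitals, 5′ to 3′ on each gene's strand.
Csf2rb, chr15:78338897-78338986 (plus strand): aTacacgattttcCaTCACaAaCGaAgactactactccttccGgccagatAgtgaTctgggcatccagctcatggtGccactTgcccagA
Csf2rb2, chr15:78294345-78294434 (minus strand): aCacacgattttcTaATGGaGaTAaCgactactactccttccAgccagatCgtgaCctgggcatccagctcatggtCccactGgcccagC
The longest run without a difference is 242 bases in exon 14 of both genes. A read wholly inside it cannot be assigned from its own bases, although the study sequenced read pairs and its mate may lie outside. The run is shown as it stands in Csf2rb.
Csf2rb, chr15:78348577-78348818 (plus strand): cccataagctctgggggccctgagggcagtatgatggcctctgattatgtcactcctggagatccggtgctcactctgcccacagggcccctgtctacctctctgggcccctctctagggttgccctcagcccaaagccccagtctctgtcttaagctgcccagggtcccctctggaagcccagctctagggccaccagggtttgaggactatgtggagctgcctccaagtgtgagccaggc
The counts of both genes were also summed and tested as 1 gene. If each read was counted once, this sum does not depend on the sharing of reads between them. The sum was 38621 to 41421 counts with PBS, 35150 to 37713 with RANKL and 14980 to 21687 with vitamins. The sum fell with vitamins by 0.86 on the log2 scale from RANKL (SE 0.11, adjusted p = 0.00113) and by 1.13 from PBS (SE 0.11, adjusted p = 0.000257). RANKL against PBS gave -0.27 (adjusted p = 0.227).

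The shares of the chains were compared next. Csf2rb2 made up 28.1%, 31.8% and 29.6% of the counts of the β pair with PBS, 29.3%, 32.7% and 29.2% with RANKL and 44.8%, 36.6% and 40.3% with vitamins, so that all vitamin libraries lay above all others. The mean was 40.6% ± 4.09 (SD, n = 3) with vitamins against 30.4% ± 1.98 with RANKL (exact permutation test, two-sided, p = 0.1). Csf2ra made up 58.4% to 62.6% of the summed Csf2ra and Csf2rb FPKM with PBS, 61.6% to 65.4% with RANKL and 79.8% to 83.7% with vitamins. By counts, which are not corrected for gene length, its mean share was 37.1%, 40.9% and 63.6%. With 3 libraries a group, p = 0.1 is the smallest value the exact permutation test can give, and it became 0.15 after Benjamini-Hochberg adjustment over the 9 comparisons of shares. Paired by replicate number, RANKL against PBS changed the Csf2ra share by 3.82 percentage points ± 1.56 (SD, n = 3; higher in 3 of 3 pairs) and the Tnfrsf1b share of the TNF receptor pair by -4.48 ± 3.09 (lower in 3 of 3), each with p = 0.25 in an exact sign-flip permutation test, the smallest value that 3 pairs allow. The Csf2rb2 share was higher with RANKL in 2 of 3 pairs (exact p = 0.5).

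**Figure D2:**
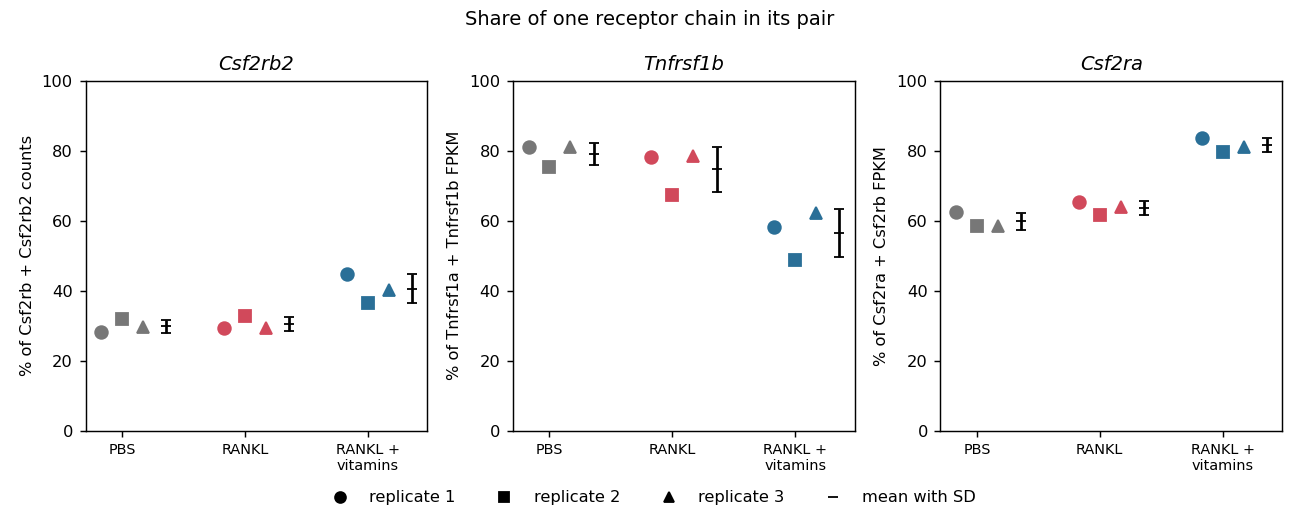
Share in percent (vertical axes, 0 to 100) of Csf2rb2 in the counts of the β pair, of Tnfrsf1b in the FPKM of both TNF receptors, and of Csf2ra in the summed FPKM of Csf2ra and Csf2rb, by library, with the group mean and SD at the right of each group. The vitamin libraries do not overlap with the other groups in any of the 3 shares.

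Csf3r, at chr4:126024550-126044440 on the plus strand, encodes the G-CSF receptor of neutrophils and their precursors, which monocytes and macrophages also carry at lower levels. Its levels were 48.5, 32.7 and 46.7 FPKM with PBS, 20.3, 7.76 and 17.4 FPKM with RANKL and 5.88, 4.71 and 5.99 FPKM with vitamins, with no overlap between any groups. It had the largest fall of the 10 genes in RANKL against PBS, 2.82-fold (log2 fold change -1.60, SE 0.35, adjusted p = 0.0446, edgeR). That call was lost without any single PBS or RANKL library or without vitamin replicate 3 (adjusted p from 0.0534 to 0.158) and with no filter on low counts (0.0692). Without RANKL replicate 2 the log2 fold change was -1.27 (adjusted p = 0.0534), and without that library and vitamin replicate 2 it was -1.23 (adjusted p = 0.00811). Vitamins lowered it 2.74-fold from RANKL (-1.31, SE 0.35, adjusted p = 0.0204) and 7.72-fold from PBS (-2.92, SE 0.37, adjusted p = 0.000654). The vitamin call against RANKL was lost without RANKL replicate 1, RANKL replicate 3 or vitamin replicate 3 (0.0517 to 0.0796). Neutrophil markers were also lower with vitamins: their sum over 12 genes was 108 to 264 FPKM with PBS, 53.6 to 192 with RANKL and 15.2 to 32.7 with vitamins, where 7 of 12 were at 0, and 9 of 11 tested fell against RANKL and 9 of 11 against PBS. Between RANKL and PBS, 1 of 11 fell, Mmp8 (a neutrophil collagenase), from a mean of 113 to 43.9 FPKM (2.58-fold, adjusted p = 0.0125), which made up much of the sum. The other 10 tested did not pass, among them S100a8 (0.08) and S100a9 (0.05). The part of these cells in the levels of Csf3r was not tested. The closest genes over the 9 libraries, Pgap1 (root mean square difference 0.27), Adam33 (0.28) and Gpx3 (0.33), ran less close to Csf3r than those found for Tnfrsf11a and Csf1r did to them.

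The genes closest to Csf2rb were Kmt5c (0.09), Dusp22 (0.10) and Gm37494 (0.10). Kmt5c, a histone H4 methyltransferase, read 16.9, 17.3 and 17.4 FPKM with PBS, 15.9, 15.2 and 16.4 with RANKL and 5.38, 9.67 and 6.39 with vitamins. As in Csf2rb, the vitamin libraries stood alone and replicate 2 was the highest of them, a likeness that follows from how Kmt5c was picked.

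Of the TNF receptor genes, Tnfrsf1b fell with vitamins in both comparisons and Tnfrsf1a did not pass the test in either with all libraries. Tnfrsf1b, at chr4:145213463-145246870 on the minus strand, encodes TNFR2 and read 268, 200 and 291 FPKM with PBS, 197, 109 and 202 FPKM with RANKL and 64.5, 64.8 and 73.1 FPKM with vitamins. All vitamin libraries lay below all others, and the PBS and RANKL groups overlapped. It fell 2.51-fold from RANKL (log2 fold change -1.19, SE 0.27, adjusted p = 0.00973) and 3.76-fold from PBS (-1.89, SE 0.27, adjusted p = 0.00105). The 1.5-fold lower mean with RANKL against PBS (-0.70, SE 0.26) had an adjusted p of 0.193, which became 0.0404 with the replicate number as a block. Tnfrsf1a, at chr6:125349362-125361874 on the plus strand, encodes TNFR1 and ranged from 63.0 to 67.9 FPKM with PBS and from 52.7 to 55.2 FPKM with RANKL, a separation of all libraries with a log2 fold change of -0.39 (SE 0.13, adjusted p = 0.14) that passed without vitamin replicate 2 (adjusted p = 0.0214) and did not without that library and RANKL replicate 2 (adjusted p = 0.0549). With vitamins it read 46.4, 67.7 and 44.1 FPKM, so that replicate 2 was near the PBS level and the other two were below all RANKL libraries. On TMM-scaled counts vitamins against RANKL gave 0.09 (95% interval -0.20 to 0.38, adjusted p = 0.63), while the mean FPKM was 0.972 times that with RANKL, so the direction depended on the scaling. The value turned to -0.14 (adjusted p = 0.196) without RANKL replicate 2 and vitamin replicate 2. Without vitamin replicate 2, Tnfrsf1a fell by 0.44 on the log2 scale from PBS (adjusted p = 0.00416), against -0.30 (adjusted p = 0.0882) with it. Tnfrsf1b made up 79.2% ± 3.23 (SD, n = 3) of the FPKM of the pair with PBS, 74.7% ± 6.32 with RANKL and 56.5% ± 6.89 with vitamins, and in vitamin replicate 2 it was 48.9%. The vitamin libraries did not overlap with the others (exact permutation test, two-sided, p = 0.1, adjusted to 0.15).

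Both adaptor genes rose with vitamins against RANKL, where 6 receptor genes fell. Gab2, at chr7:97081586-97308946 on the plus strand, read 24.6, 25.2 and 26.0 FPKM with PBS, 23.1, 16.9 and 24.0 FPKM with RANKL and 79.8, 27.4 and 67.4 FPKM with vitamins. All vitamin libraries were above all others, replicate 2 only just. It rose 2.73-fold over RANKL (log2 fold change 1.63, SE 0.38, adjusted p = 0.0116) and 2.30-fold over PBS (1.27, SE 0.38, adjusted p = 0.0247). The call against PBS was lost without any single PBS library or vitamin replicate 1 or 3 (adjusted p from 0.0565 to 0.0677), and without vitamin replicate 2 the rise was 1.64 (adjusted p = 0.00012). RANKL against PBS gave -0.36 (SE 0.37, adjusted p = 0.675) for Gab2, although all RANKL libraries lay below all PBS libraries. Traf6, at chr2:101678429-101701669 on the plus strand, read 8.12, 7.97 and 7.89 FPKM with PBS, 5.80, 6.44 and 5.97 FPKM with RANKL and 11, 7.05 and 9.41 FPKM with vitamins. The RANKL libraries were the lowest of all, and the vitamin libraries lay on either side of PBS. Traf6 rose with vitamins against RANKL, 1.51-fold in mean FPKM (log2 fold change on TMM-scaled counts 0.76, SE 0.19, adjusted p = 0.0149), a call lost without RANKL replicate 1 or vitamin replicate 3 (0.0572 and 0.05). RANKL against PBS gave -0.52 (SE 0.19, adjusted p = 0.174), which passed at an adjusted p of 0.00974 without vitamin replicate 2. Vitamins against PBS gave 0.24 (adjusted p = 0.343), which became 0.44 (adjusted p = 0.00464) without that library.

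**Figure D3:**
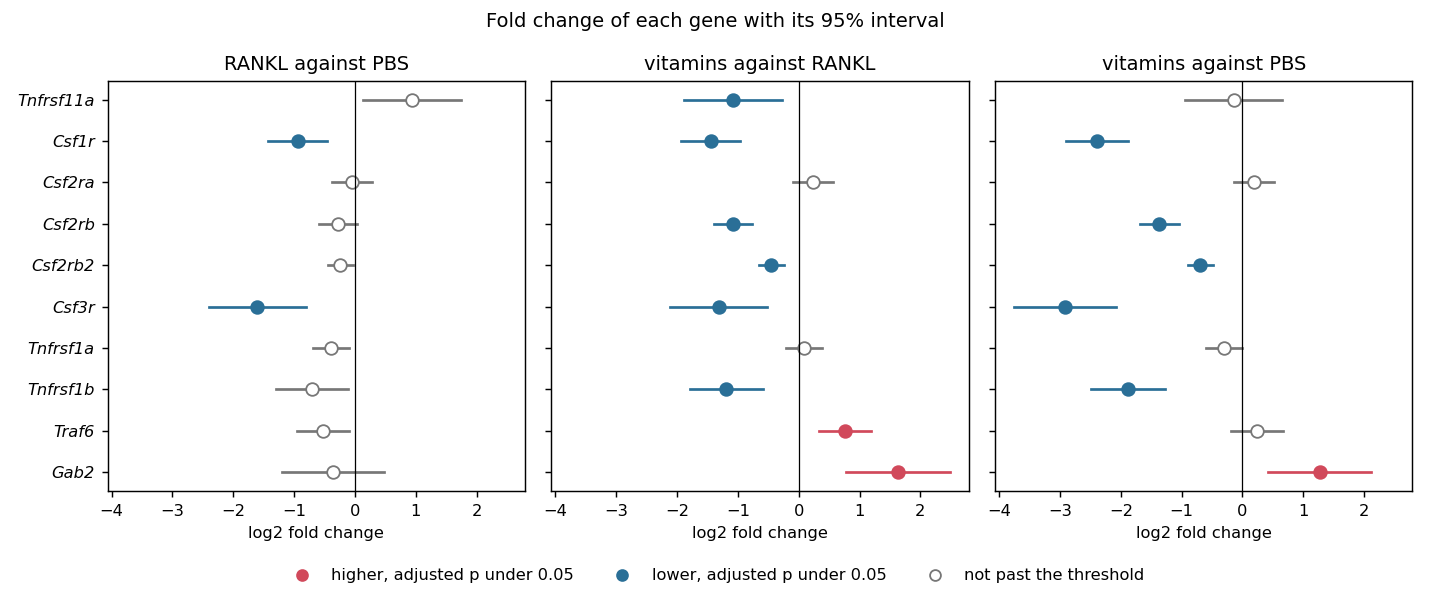
Log2 fold change of each gene (horizontal axis) with its 95% interval from edgeR in the 3 comparisons, filled where the adjusted p was under 0.05. Vitamins against RANKL shows 6 receptor genes to the left of 0 and the adaptors Traf6 and Gab2 to the right, with Csf2ra and Tnfrsf1a at 0.23 and 0.09.

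Genes of the same pathways were read from fixed lists, and their counts were also taken without RANKL replicate 2 and vitamin replicate 2, where 4.81% of 17521 tested genes rose and 3.08% fell with RANKL against PBS, 21.8% rose and 27.3% fell with vitamins against RANKL, and 25.6% rose and 28.1% fell with vitamins against PBS. Of the list genes named here as called, Il34 (adjusted p = 0.0545) and Adam9 (0.055), both with vitamins against RANKL, lost their calls without those libraries. Of the ligands and decoys of these receptors, 4 of 11 were tested. With RANKL against PBS edgeR called 0 of them in either direction (1 higher at an unadjusted p under 0.05, 1 higher in DESeq2 and 0 in limma), where 2.35% of all genes rose and 1.26% fell. With vitamins against RANKL 1 rose and 1 fell, 25% each, against 16.4% and 17.2% of all genes. Csf1, the gene for M-CSF itself, read 0.156, 0.084 and 0.144 FPKM with PBS, 0.163, 0.0992 and 0.148 with RANKL and 4.19, 0.868 and 2.95 with vitamins. It rose with vitamins by 4.46 on the log2 scale over RANKL (SE 0.62, adjusted p = 0.00151), while its receptor gene Csf1r fell. Il34, the other ligand of the M-CSF receptor, had 11, 40 and 18 counts with RANKL and 0 in all PBS and vitamin libraries, and its fall with vitamins passed the test (adjusted p = 0.0195). Il34, Tnf and Csf3 were named after their values were seen. Tnf had mean levels of 7.83, 3.92 and 7.05 FPKM in the PBS, RANKL and vitamin groups, which overlapped (adjusted p of 0.408, 0.509 and 0.85). RANKL replicate 2 read 8.08 FPKM and vitamin replicate 2 read 17 FPKM, against 1.63 to 2.24 FPKM in the other libraries of those groups, and without both, Tnf fell by 2.13 on the log2 scale with RANKL against PBS (adjusted p = 0.00397) and by 1.81 with vitamins against PBS (adjusted p = 0.000552). Csf3, the gene for G-CSF, was listed at 0 in every library.

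Of 19 tested genes of the wider TNF receptor family, 7 fell and 2 rose with vitamins against RANKL, 36.8% and 10.5% against 17.2% and 16.4% of all genes, with a median log2 fold change of -0.59 against -0.04, and without both libraries 9 fell and 2 rose. Tnfrsf14, the herpesvirus entry mediator HVEM, read 43.8, 28.8 and 46.6 FPKM with RANKL and 1.46, 7.82 and 3.58 with vitamins, 9.27-fold lower (log2 fold change -3.13, adjusted p = 0.00237). Tnfrsf8 (CD30) fell by 2.40 on the log2 scale from a mean of 1.18 FPKM to 0.0736, 0.384 and 0.161 FPKM, and by 3.09 without both libraries. Tnfrsf14 fell by 4.02 without them. Tnfrsf26, a receptor known from the mouse, rose by 1.97 (adjusted p = 0.00158) from 5.77 to 20.0 FPKM in the mean, and Tnfrsf12a, the TWEAK receptor, by 2.95 (adjusted p = 0.00496). Without both libraries, 8 of 19 (42.1%) fell from PBS, against 28.1% of all genes. With all libraries, 31.6% fell and 21.1% rose against PBS, where 21.0% and 19.8% of all genes did: 6 of 19 fell, among them the death receptor gene Fas (-1.74, adjusted p = 0.000381), and 4 rose, Tnfrsf12a, Tnfrsf26, Tnfrsf9 and Tnfrsf10b, a TRAIL receptor. RANKL against PBS gave 1 call, Tnfrsf9 (4-1BB), named like Tnfrsf10b after its values were seen, with 176, 277 and 149 counts against 0, 0 and 3. That is 5.26% of the list higher, against 2.35% of all genes. There were 0 lower calls in edgeR (1 at an unadjusted p under 0.05, 0 in DESeq2 and limma), against 1.26% of all genes in edgeR.

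Of 21 tested cytokine receptor genes of blood cells, 1 rose and 2 fell with RANKL against PBS, 4.76% and 9.52% against 2.35% and 1.26% of all genes. With vitamins against RANKL 6 fell and 2 rose, 28.6% and 9.52% against 17.2% and 16.4% of all genes, and without both libraries 13 fell and 2 rose. There were 10 that fell and 3 that rose with vitamins against PBS, 47.6% and 14.3% against 21.0% and 19.8% of all genes, with a median of -0.48 in the last. The 3 that rose against PBS were Il2rg, Il7r and Il6st. Lifr fell with vitamins against PBS by 4.25 on the log2 scale (adjusted p = 0.00377) from a mean of 1.28 FPKM, and by 5.81 without both libraries. Il2rg, the common γ chain, read 22.2, 20.3 and 17.7 FPKM with PBS and 106, 114 and 102 FPKM with RANKL, a rise of 2.29 (SE 0.11, adjusted p = 7.33e-05). With vitamins it read 72.2, 91.1 and 75.1 FPKM, below all RANKL libraries (-0.29, adjusted p = 0.0596), and without both libraries it fell by 0.35 on the log2 scale (adjusted p = 0.0225). Il7r, the IL-7 receptor α chain that pairs with it, read 5.48, 5.08 and 6.25 FPKM with RANKL and 154, 36.9 and 119 FPKM with vitamins, a rise of 4.40 (SE 0.52, adjusted p = 0.000873). Il6ra, the IL-6 receptor, fell by 2.37 (adjusted p = 0.0025) with vitamins against RANKL, to 1.74, 6.69 and 3.22 FPKM, and by 3.11 without both libraries, while Il6st, its signalling partner gp130, rose by 1.06 (adjusted p = 0.0181). Il10ra fell by 1.58 (adjusted p = 0.00257). The lower calls of RANKL against PBS were Il17ra (-0.91, adjusted p = 0.0121) and Il1r1 (-2.06, adjusted p = 0.0497).

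Among 27 genes that act below RANK and the TNF receptors, 3 rose and 1 fell with RANKL against PBS, 11.1% and 3.7% against 2.35% and 1.26% of all genes. Traf1 read 1.12, 0.876 and 0.869 FPKM with PBS, 11.5, 15.0 and 10.6 with RANKL and 4.18, 7.19 and 4.29 with vitamins, so the 3 groups were separate. It rose by 3.55 with RANKL (SE 0.21, adjusted p = 0.00013) and fell by 1.11 with vitamins against RANKL (adjusted p = 0.00339). Tank, a TRAF-binding regulator, rose by 0.73 (adjusted p = 0.0107) with RANKL, and Tifa, a TRAF6-binding protein, fell by 0.60 (adjusted p = 0.0434). The third gene that rose was Traf2 (0.67, adjusted p = 0.0427), named after its values were seen. The median of the list was 0.15 in that comparison. With vitamins against RANKL 7 rose and 8 fell, 25.9% and 29.6% against 16.4% and 17.2% of all genes, and without both libraries 11 rose and 12 fell. Sqstm1, the autophagy receptor p62 that binds TRAF6, read 160, 174 and 142 FPKM with RANKL and 1290, 502 and 1010 FPKM with vitamins, a rise of 2.74 (SE 0.34, adjusted p = 0.000956). Tab3 rose by 0.80 (adjusted p = 0.0188), and by 1.02 without both libraries. Map3k14, the NF-κB-inducing kinase NIK, fell by 1.00 (adjusted p = 0.00644).

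Of 42 genes that act below the CSF receptors, 2 rose and 0 fell with RANKL against PBS in edgeR, 4.76% and 0% against 2.35% and 1.26% of all genes. The lower calls were 8 at an unadjusted p under 0.05, 1 in DESeq2, 0 in limma and 5 without both libraries. The 2 that rose were Src family kinases. Src, which osteoclasts need to resorb bone, read 0.6, 0.444 and 0.595 FPKM with PBS, 13.3, 18.9 and 10.9 with RANKL and 3.20, 2.53 and 2.19 with vitamins, a rise of 4.57 (SE 0.27, adjusted p = 0.00013) followed by a fall of 2.27 on the log2 scale (adjusted p = 0.000613). Fgr rose by 2.71 (adjusted p = 0.0103) and fell by 2.09 with vitamins (adjusted p = 0.00502), or by 2.68 without both libraries. With vitamins against RANKL 7 rose and 12 fell, 16.7% and 28.6% against 16.4% and 17.2% of all genes, with a median of -0.02, and without both libraries 16 rose and 17 fell. Cblb, a ubiquitin ligase that restrains receptor signalling, rose by 2.92 (adjusted p = 0.000901) and the Src family kinase gene Fyn by 2.04 (adjusted p = 0.000665). While Gab2 rose against PBS, its relatives Gab1 (-1.46, adjusted p = 0.00772) and Gab3 (-1.24, adjusted p = 0.00639) fell.

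Of 14 genes of the machinery that cleaves receptors from the cell surface, 4 rose and 2 fell with vitamins against RANKL, 28.6% and 14.3% against 16.4% and 17.2% of all genes, with a median of -0.11, and without both libraries 4 rose and 6 fell. Adam8, a surface protease, rose by 1.21 (adjusted p = 0.00339) from a mean of 81.7 to 172 FPKM, and Rhbdf2, which escorts ADAM17 to the surface, by 0.82 (adjusted p = 0.00143). The others were Adam9 and Ncstn, which rose, and Rhbdf1 and Aph1a, which fell; Adam9, Ncstn and Rhbdf1 were named in this comparison after their values were seen. Against PBS, the vitamin group had 5 of 14 lower and 2 higher, 35.7% and 14.3% against 21.0% and 19.8% of all genes. Adam17 itself, the protease that releases TNF and its receptors, was lower with vitamins than with PBS by 0.56 on the log2 scale (adjusted p = 0.0136). Rhbdf1 was lower by 3.27 (adjusted p = 0.00118), while Adam8 (1.08, adjusted p = 0.00377) and Ncstn (0.37, adjusted p = 0.0493) were higher. RANKL against PBS gave 1 lower call, Rhbdf2 (-0.59, adjusted p = 0.0254), 7.14% of the list against 1.26% of all genes. It gave 0 higher calls, also at an unadjusted p under 0.05, in DESeq2 and in limma, against 2.35% of all genes in edgeR.

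**Figure D4:**
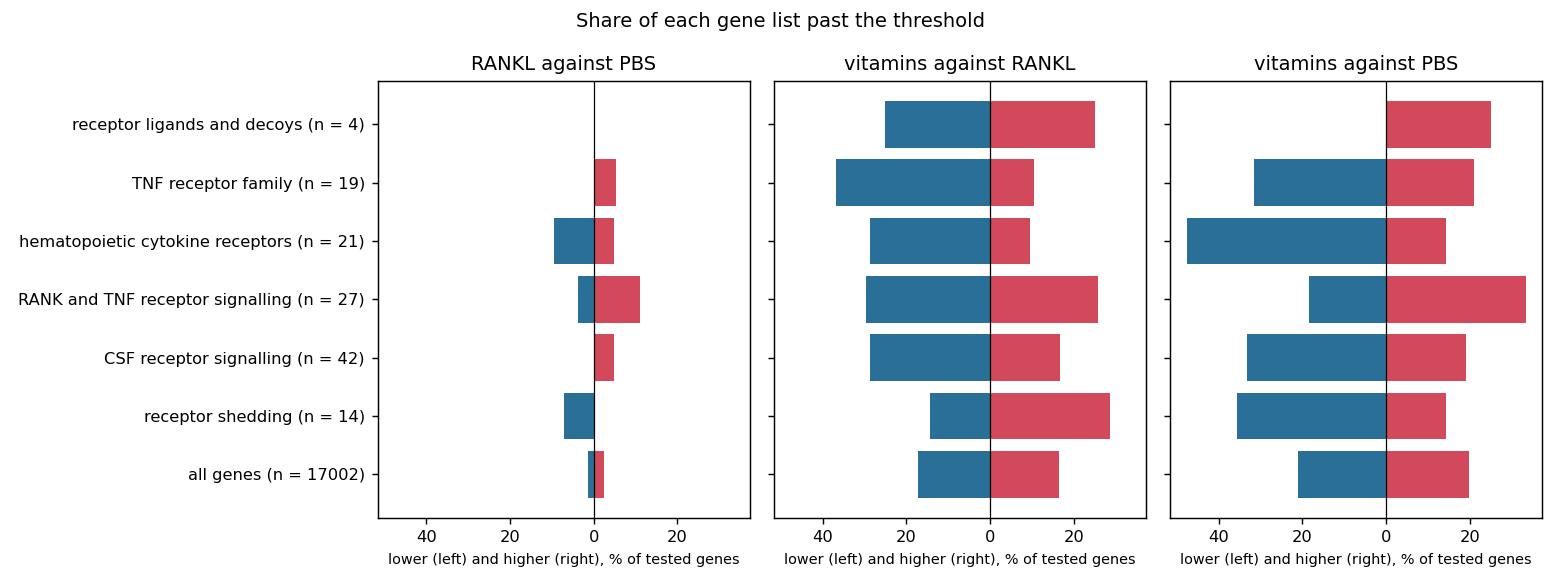
Share of each list's tested genes past an adjusted p of 0.05 (horizontal axis, in percent, higher in red to the right and lower in blue to the left) in the 3 comparisons, with all 17002 tested genes in the lowest row. With vitamins against PBS 47.6% of the cytokine receptors were lower against 21.0% of all genes, and the numbers of tested genes per list run from 4 to 42.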

How the data were processed

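Count and FPKM values per gene were deposited by the authors as 1 table of 28379 genes. The counts are whole reads per gene, and the authors scaled the FPKM values to gene length and library depth. Per the submitters' processing notes, the tools were cutadapt 1.9, HISAT2 2.0.4, StringTie 1.3.4d and edgeR; the build they name is human (hg38), but 24678 of the genes have exactly the chromosome, start and end of the mouse annotation GENCODE vM21 (GRCm38), so GRCm38 coordinates are given. The table holds no fold change or p-value columns. How reads that match several genes were shared out is not given in the sources used here. A count of 0 allows up to 3 counts per library, for counting error only.

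Counts were tested with edgeR 4.0.16 (R 4.3.3; filterByExpr, TMM, quasi-likelihood F test, all 9 libraries, Benjamini-Hochberg adjustment over 17002 genes, threshold 0.05). Standard errors are the log2 fold change divided by the square root of F. Shares were compared with exact permutation tests over libraries. DESeq2 1.42.0 and limma 3.58.1 on log2(FPKM + 0.1), for genes with at least 0.5 FPKM in 3 or more libraries, were alternatives, along with other size factors, no filter, only the groups compared, a replicate block and each library left out. Scripts were tested on simulated data. Sequences were read with Python and Biopython 1.88.

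The 10 genes and all lists were chosen with earlier results of these data known. Named beyond the 10 genes are, per list and comparison, up to 2 genes in each direction with the largest fold change past the threshold, separate groups and a mean of at least 1 FPKM in the higher group, the 3 treatment checks, markers of cell types above 1 FPKM in sum, and the 3 genes nearest to each of 4 of the 10 genes by root mean square difference of centred log2 CPM. Few of those are described in full, and 1 of the genes nearest to Csf1r is not reported here. Libraries with the same replicate number deviated together in RANKL against PBS (correlations of deviations 0.122, 0.219 and 0.155), which was treated as possible pairing there. Neither the labels nor the methods state a pairing, libraries with different numbers were not correlated, and the main fit is unpaired. The other comparisons gave -0.022 to 0.107 and were not taken as paired. No pair of libraries in a group differed by as little as sampling noise: their chi-square per degree of freedom was 24.3 or more.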

Additional observations from a re-analysis of the deposited data

How the results depend on the processing

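Of 516 alternative values for the 10 genes, 446 kept their direction and their side of the threshold, 39 fell short of it, 15 newly passed it and 16 turned sign. The cause was not tested for any of these changes. In RANKL against PBS, 614 genes were called, against 1611 in DESeq2, 1736 with only those groups in the fit, 126 to 1903 with a library left out, and 1382 without RANKL replicate 2 and vitamin replicate 2, an alternative chosen after seeing the data. The 2 lower calls among the 10 genes became 1 with median-of-ratios size factors, 0 with no filter, 4 with only those groups, 1 in limma with either pseudocount (0.1 or 1) and 0 to 4 with a library left out. The 0 higher calls became 1 (Tnfrsf11a) with only those groups, without both doubted libraries, and in the range of 0 to 1 with a library left out. With vitamins against RANKL, 5725 genes were called, 3199 to 8259 with a library left out and 8603 without both doubted libraries; the higher calls among the 10 genes ranged from 1 to 2 and the 6 lower calls from 4 to 6 with a library left out. Against PBS the 1 higher call ranged from 0 to 2 with a library left out and was 2 without both doubted libraries, and the 5 lower calls ranged from 5 to 7.

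With the replicate number as a block, which pairs the RANKL and PBS libraries, 825 genes were called in that comparison, 3 of the 10 genes fell, and Tnfrsf1b was the only one of them to change its call. In the other comparisons the block gave 5873 and 7041 genes and changed no call of the 10 genes.

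Computed from the other unit, the share of Csf2rb2 was 39.5%, 40.1% and 51.1% in the PBS, RANKL and vitamin groups, that of Tnfrsf1b 84.8%, 81.2% and 65.6%, and that of Csf2ra 37.1%, 40.9% and 63.6%, with the vitamin group on the same side each time. Near 0, Csf2ra in RANKL against PBS (-0.04) turned to 0.0169 with no filter, 0.0103 with only those groups, 0.0779 and 0.0771 in limma, 0.134 without both doubted libraries, and 0.00854 to 0.109 without PBS replicate 1 or 3, RANKL replicate 2, or vitamin replicate 1 or 3, with a lowest value of -0.136 without RANKL replicate 1. Tnfrsf1a with vitamins against RANKL (0.09) turned to -0.0681 and -0.0666 in limma, -0.138 without both doubted libraries and -0.0456 without vitamin replicate 2, with a highest value of 0.182 without vitamin replicate 3. Tnfrsf11a with vitamins against PBS (-0.15) turned to 0.199 and 0.075 without vitamin replicate 1 or 3 and was lowest, at -0.733, without replicate 2. Each of these genes had 1309 counts or more in every library, and the part of depth in these changes was not tested.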
